A study of Rattus norvegicus with 12 samples.

Results

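The effect of tying off the mesenteric lymph duct on gene expression in rat lung was taken from all 12 arrays of the study, 6 from rats with the duct ligated and 6 from rats without. Each group held 2 arrays that were near-identical. These were averaged, which left 4 ligated and 4 unligated samples. Of 8740 probe sets on these arrays, 7006 carried 1 gene symbol, for 4736 genes. Ligation was compared with shock held constant, and the genes described are mainly those that lay on the same side with and without shock.

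All rats were male Sprague-Dawley of 300 to 420 g, and all had vessels cannulated and a laparotomy, which stands for trauma. T/SS rats had a sham-shock period of 90 min with no blood withdrawn. T/HS rats were bled into a heparinised syringe to 30 mmHg for 90 min, and the shed blood was then returned. Ligated rats (T/SS-LDL without and T/HS-LDL with shock) had the same procedures after a midline celiotomy in which the efferent mesenteric lymphatic vessel was dissected free, tied and divided. The labels describe no such dissection in the unligated rats, so ligation and the surgery that goes with it cannot be told apart. Per the design text, T/HS rats had lung injury and rats of the other 3 groups did not. Lungs were taken 3 h after the end of the period, 4.5 h after shock began. Each sample is RNA of a whole lung, in which fewer cells of a type and less RNA per cell cannot be told apart.

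Mesenteric lymph drains the intestine. It carries absorbed fat as chylomicrons, together with lymphocytes and substances released by the gut, and it enters the venous blood without passing the liver, so that the capillaries of the lung are the first it meets. Neutrophils that leave the bone marrow are held in those same capillaries. Mmp8, S100a8 and S100a9 are made mostly by neutrophils, and Me1, Insig1 and their partners set the supply of reducing power and sterol in many cells.

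The stretches before the start of 6 genes described below are shown. These genes were among those higher in ligated samples in both shock states, and each was picked because it holds a match. They are the 250 bases upstream of the start in RefSeq's promoter table for GRCr8. Capitals mark TTGCNNAA, a motif of the C/EBP factors of myeloid cells, in Mmp8. They mark TGACNNNGC, the core of the antioxidant response element, in Me1, Prnp, Pgrmc1 and Tomm20, and CACGTG, the E-box bound by clock and lipid regulators, in Insig1. Both strands were searched, and no capital stretch belongs to more than 1 of the 3 motifs.
Mmp8: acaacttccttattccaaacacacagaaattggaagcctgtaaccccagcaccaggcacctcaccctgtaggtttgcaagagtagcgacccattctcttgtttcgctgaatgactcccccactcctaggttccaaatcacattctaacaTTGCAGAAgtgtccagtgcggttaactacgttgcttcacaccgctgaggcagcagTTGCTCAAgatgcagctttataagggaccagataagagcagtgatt
Me1: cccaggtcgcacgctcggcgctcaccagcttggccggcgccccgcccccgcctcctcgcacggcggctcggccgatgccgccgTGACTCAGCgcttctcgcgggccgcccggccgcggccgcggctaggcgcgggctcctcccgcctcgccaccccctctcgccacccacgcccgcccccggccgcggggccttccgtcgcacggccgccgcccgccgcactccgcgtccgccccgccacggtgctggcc
Prnp: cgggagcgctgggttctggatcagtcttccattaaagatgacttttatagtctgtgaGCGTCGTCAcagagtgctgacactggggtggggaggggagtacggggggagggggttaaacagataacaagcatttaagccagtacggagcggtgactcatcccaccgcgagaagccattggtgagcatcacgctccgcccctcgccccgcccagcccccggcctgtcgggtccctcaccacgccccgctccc
Pgrmc1: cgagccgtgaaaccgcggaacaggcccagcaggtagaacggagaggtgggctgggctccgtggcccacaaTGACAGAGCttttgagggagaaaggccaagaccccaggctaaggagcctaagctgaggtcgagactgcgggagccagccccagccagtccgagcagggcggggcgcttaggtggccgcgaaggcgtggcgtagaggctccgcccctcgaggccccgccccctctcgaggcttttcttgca
Tomm20: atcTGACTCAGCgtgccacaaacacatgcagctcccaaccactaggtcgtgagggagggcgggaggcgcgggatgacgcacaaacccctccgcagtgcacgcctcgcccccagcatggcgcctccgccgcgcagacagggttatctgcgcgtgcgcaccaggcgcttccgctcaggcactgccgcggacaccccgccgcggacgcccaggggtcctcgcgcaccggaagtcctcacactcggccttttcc
Insig1: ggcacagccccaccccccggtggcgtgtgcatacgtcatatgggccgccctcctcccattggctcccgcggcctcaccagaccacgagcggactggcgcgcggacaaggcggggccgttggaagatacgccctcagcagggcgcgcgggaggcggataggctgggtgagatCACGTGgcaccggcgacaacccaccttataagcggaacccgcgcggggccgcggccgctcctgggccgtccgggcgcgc
Mmp8 lies at chr8:13008640-13008889 on the plus strand and Me1 at chr8:96540245-96540494 on the minus strand. Prnp lies at chr3:139638826-139639075 (plus; the table holds 2 starts, and the first was used) and Pgrmc1 at chrX:120698360-120698609 (plus). Tomm20 lies at chr19:71832421-71832670 (minus) and Insig1 at chr4:8057770-8058019 (minus). The antioxidant element letters stand in 10.1% of the 33469 promoters of the table, the C/EBP letters in 9.22% and the E-box in 5.59%. Of the 15 higher genes named below, 12 had a promoter entry, and 4 of the 12 held the antioxidant element letters. The E-box stood in 1 of the 12 and the C/EBP letters in 0. Of the neutrophil genes named below, 6 had an entry, and 3 of the 6 held the C/EBP letters. These were Mmp8, Lcn2 (difference 0.13 ± 0.31, SE) and Itgam (-0.11 ± 0.07). S100a9, which was higher in both shock states, held none. None of the 10 lower genes with an entry held any of the 3 motifs. A match is a description of letters and not of a bound site.

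In each group, the near-identical pair differed by a robust SD of 0.00993 to 0.0548 on the log2 scale, against 0.164 to 0.232 for other pairs of the same group. The labels call every array a biological replicate. Array medians lay between 651 and 680 intensity units. Sftpc of alveolar type II cells, Ager of type I cells and Hbb of red cells had mean log2 intensities of 14.93 each, at the top of the scale, and Scgb1a1 of club cells 14.61, so the labelled tissue carried its defining markers. One T/HS sample stood apart: the mean level over 17 interferon responsive genes was 13.24 in T/HS replicate 2 and 10.41 to 10.73 in the other 7 samples.

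No probe set passed an adjusted p of 0.05 for ligation in limma's test (0 of 8740, smallest adjusted p 0.559). At an unadjusted limma p under 0.05 there were 762 probe sets (8.72%), 414 higher (4.74%) and 348 lower (3.98%) in ligated samples, where 437 would be expected from the threshold alone. That count was 432 without T/SS-LDL replicate 1-3 and 1173 without T/HS replicate 2. What follows is therefore a description of levels and differences, none of which passed the test across all probe sets. The 2 states were compared through their own samples: T/SS-LDL against T/SS, and T/HS-LDL against T/HS.

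A probe set is called apart here when, in each shock state separately, both ligated samples lay on the same side of both unligated samples. Of the 8740 probe sets, 853 (9.76%) were apart the same way in both states, 396 higher (4.53%) and 457 lower (5.23%). Another 309 (3.54%) were apart in opposite ways. With each array centred on its median, the count was 826, with 506 higher and 320 lower, so the split between directions depends on the scaling. Likewise, the counts at an unadjusted p under 0.05 became 540 higher and 229 lower with that scaling. Over all probe sets, 60.6% had differences of the same sign with and without shock, and Pearson's r across probe sets was 0.128. Probe sets are not independent, and all arrays were normalized together. That share was 53.4% (r = -0.0166) without T/HS replicate 1-3 and 53.0% (r = -0.0474) without T/SS-LDL replicate 1-3, so the likeness of both states rests on these 2 averaged samples. The count of probe sets apart was 1375 without T/SS replicate 1, 2006 without T/HS replicate 2, 1747 without T/SS-LDL replicate 2 and 1715 without T/HS-LDL replicate 1-3, where a lone sample is separated more easily.

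**Figure D1:**
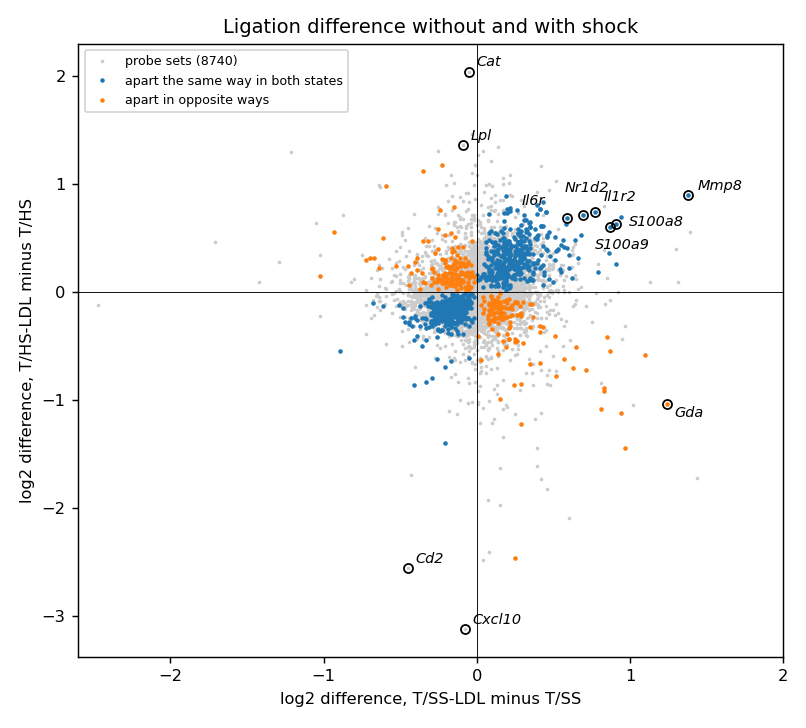
Log2 difference between ligated and unligated samples with shock (vertical axis) against that without shock (horizontal axis), 1 point per probe set, group means of 2 samples each. Mmp8, S100a8, S100a9, Il1r2, Nr1d2 and Il6r lie in the upper right, Cat and Lpl lie near 0 without shock and at 2.04 and 1.36 with shock, and Gda has opposite signs (1.24 and -1.04).

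Differences above 1.5-fold in the same direction in both states were found for 9 probe sets, and all 9 were higher in ligated samples. None was above 2-fold in both. They belonged to Mmp8, S100a8, S100a9, Il1r2, Il6r, Me1, Nr1d2 and Fam111a, and the last to an expressed sequence tag without a gene symbol. Samples overlapped for Fam111a (6.99 to 10.53 unligated, 7.53 to 11.68 ligated) and for that tag. The other 7 were apart in both states. Of the 8 named genes, 4 are neutrophil genes of the cell type lists.

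Genes of neutrophils formed the list with the highest median. Of 22 listed, 10 were measured, and 8 of the 10 were higher in ligated samples. The median difference was 0.44 on the log2 scale (0.41 without shock, 0.47 with shock), against -0.02 over all genes. Apart and higher in both states were 5 of the 10, where 4.86% of the 4736 genes were. The same 5 had an unadjusted limma p under 0.05, where 8.51% of all genes reached that p, 5.05% higher and 3.46% lower. The mean level over the 10 genes was 10.20 and 9.92 in T/SS, 10.54 and 10.60 in T/SS-LDL, 10.69 and 11.18 in T/HS, and 11.20 and 11.42 in T/HS-LDL. Ligated samples thus stood above unligated samples in each state, by only 0.02 at the closest in shocked rats. The list median stayed between 0.32 and 0.54 when 1 sample was left out at a time.

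Mmp8, the neutrophil collagenase stored in specific granules, had log2 intensities of 9.03 and 8.17 in T/SS and 9.76 and 10.20 in T/SS-LDL (in each pair of values the averaged arrays come first). In shocked rats it stood at 9.71 and 10.21 in T/HS and at 10.30 and 11.43 in T/HS-LDL. Ligated samples were above unligated samples in each state, and T/SS-LDL reached the levels of T/HS. The fitted difference was 1.14 ± 0.30 (SE, n = 4 samples against 4; 2.21-fold; limma adjusted p = 0.559).

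S100a8 and S100a9 code for the 2 subunits of calprotectin, the main cytosolic protein of neutrophils. S100a8 was 11.87 and 11.18 in T/SS, 12.27 and 12.60 in T/SS-LDL, 12.37 and 13.39 in T/HS, and 13.44 and 13.58 in T/HS-LDL. S100a9 was 13.33 and 12.46 in T/SS, 13.83 and 13.70 in T/SS-LDL, 13.55 and 14.65 in T/HS, and 14.73 and 14.68 in T/HS-LDL. In both genes the margin with shock was small, since T/HS replicate 2 came within 0.1 of the lower ligated sample. S100a9 in these 3 samples was also near the top of the scale. The fitted differences were 0.77 ± 0.24 for S100a8 and 0.74 ± 0.26 for S100a9 (SE, n = 4 against 4; limma adjusted p = 0.559 for both).

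Il1r2, the decoy receptor that binds interleukin-1 without signalling, was 10.41 and 10.25 in T/SS and 10.95 and 11.24 in T/SS-LDL. In shocked rats it was 11.40 and 12.43 in T/HS and 12.79 and 12.53 in T/HS-LDL. The groups did not overlap in either state, and the differences were 0.77 without and 0.74 with shock. Alox5ap, which presents arachidonic acid to 5-lipoxygenase for leukotriene synthesis, was 11.92 and 11.84 in T/SS and 12.17 and 12.42 in T/SS-LDL, and 12.70 and 12.35 in T/HS and 12.89 and 12.85 in T/HS-LDL. Its fitted difference was 0.38 ± 0.10 (SE), and a further probe set for Alox5ap gave 0.43 but overlapped without shock.

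The other 5 neutrophil genes were not apart. Mmp9, the gelatinase of neutrophil granules, differed by 0.50 ± 0.27 (SE), or 0.20 without T/HS-LDL replicate 2. Lcn2, the granule siderophore binder also made by airway cells, had the highest level of the list at 13.90 and differed by 0.13 ± 0.31, or -0.16 without T/SS-LDL replicate 1-3. The chemokine receptor Cxcr2 differed by 0.19 ± 0.14 (0.10 without T/HS replicate 1-3, 0.32 without T/HS replicate 2), and the kinase Fgr (-0.06 ± 0.08) and the integrin Itgam (-0.11 ± 0.07) stood slightly lower in ligated samples. Without T/HS-LDL replicate 2 these were 0.00 for Fgr and -0.07 for Itgam.

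**Figure D2:**
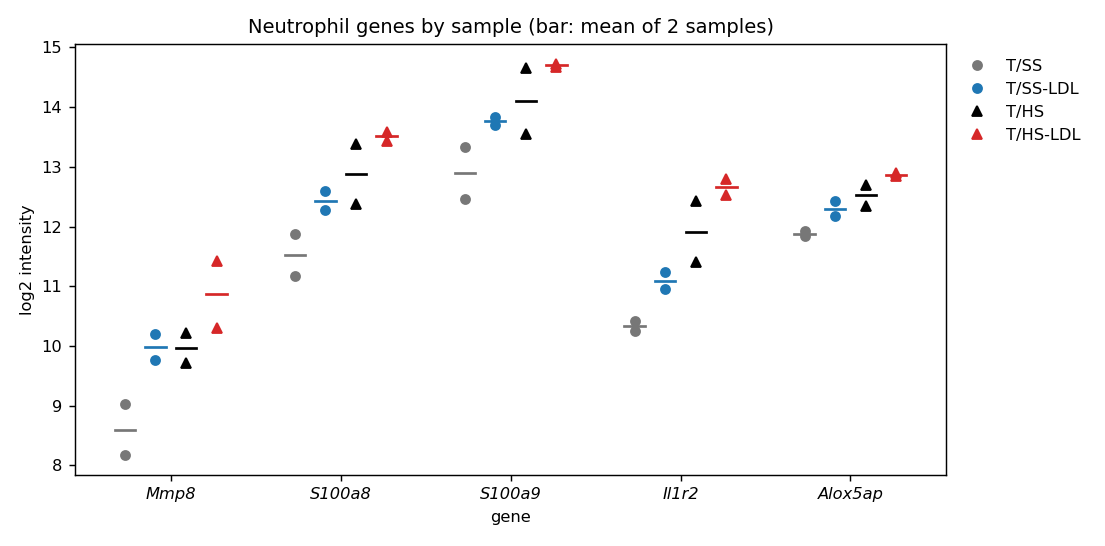
Log2 intensity of 5 neutrophil genes in the 8 samples, by group, with a bar at the mean of the 2 samples of a group. In each gene the ligated samples lie above the unligated samples of the same shock state. The T/HS samples of S100a8, S100a9 and Il1r2 lie further apart than the difference with shock (0.63, 0.60 and 0.74).

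The lists of other blood cells had medians nearer 0. Of 12 measured markers of monocytes and macrophages, 8 were higher and 4 lower with a median of 0.05, and none was apart the same way in both states. Of 19 markers of T and NK cells, 16 were lower, with a median of -0.14, and 1 was apart and lower, beside 4.86% of all genes. That median was -0.06 without T/HS replicate 1-3 and -0.21 without T/HS replicate 2. That list included Cd2, a T cell adhesion receptor, which stood at 12.18 in T/HS replicate 1-3 and at 6.67 to 7.23 in the other 7 samples. The 6 erythroid and platelet genes had a median of 0.00. Only 2 genes of B and plasma cells were measured. The difference between the neutrophil list and these lists was not tested.

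Cytokine genes lay on both sides. Of 38 cytokine and chemokine genes measured, 3 were apart and higher, 3 apart and lower and 3 apart in opposite ways, beside 4.86%, 4.86% and 3.23% of all genes. Il6r, the interleukin-6 receptor chain, was 10.68 and 10.51 in T/SS, 11.60 and 10.78 in T/SS-LDL, 10.76 and 10.67 in T/HS, and 11.11 and 11.69 in T/HS-LDL. All 4 ligated samples were above all 4 unligated samples, with a difference of 0.64 ± 0.19 (SE; limma adjusted p = 0.559). Cx3cl1, the membrane-bound chemokine of endothelium, was apart and lower in both states at -0.40 ± 0.15 (SE), as were the interferon Ifng at -0.22 ± 0.07 and Tnf at -0.23 ± 0.09. Cx3cl1 stood at 11.65 and 11.54 in T/SS, 11.52 and 10.88 in T/SS-LDL, 11.61 and 12.05 in T/HS, and 11.46 and 11.37 in T/HS-LDL. Its ligated and unligated samples came within 0.02 of each other without shock. Margins were also small for Tnf with shock (9.58 and 9.84 in T/HS, 9.56 and 9.46 in T/HS-LDL). For Ifng without shock the values were 8.34 and 8.21 in T/SS, and 8.15 and 8.14 in T/SS-LDL.

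All 17 interferon responsive genes had a fitted difference below 0, with a median of 0.07 without shock and -1.08 with shock. The second value rests on T/HS replicate 2, and the median over both states was 0.01 without that sample. Cxcl10, a chemokine induced by interferon, was 14.92 in T/HS replicate 2 and 7.35 to 8.54 in the other 7 samples. Of the 17, 2 were apart and lower in both states and 2 apart in opposite ways, beside 4.86% and 3.23% of all genes.

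Genes of sterol and NADPH supply were among those nearest the threshold. Me1, the cytosolic malic enzyme that makes NADPH for fatty acid synthesis, was 7.52 and 7.45 in T/SS, 8.64 and 8.22 in T/SS-LDL, 6.88 and 7.52 in T/HS, and 7.63 and 8.17 in T/HS-LDL. It was apart in both states with a difference of 0.82 ± 0.18 (SE; 1.76-fold; limma adjusted p = 0.559). Of 5 probe sets for Me1, 4 were higher and the dimmest was at -0.04. Insig1, which holds the sterol sensor in the endoplasmic reticulum, was 10.49 and 10.67 in T/SS, 10.84 and 10.95 in T/SS-LDL, 10.16 and 10.32 in T/HS, and 10.79 and 10.68 in T/HS-LDL. Its difference was 0.41 ± 0.08 (SE) here and 0.18 ± 0.11 in its brighter probe set, which overlapped.

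Within the list of 21 sterol and fatty acid synthesis genes measured, 14 were higher, with a median of 0.13 (0.08 without T/HS replicate 2), and 3 were apart and higher, beside 4.86% of all genes. Sqle, squalene epoxidase of the cholesterol pathway, differed by 0.35 ± 0.11 (SE), with 0.54 without shock and 0.16 with shock, where samples overlapped. Msmo1, a sterol demethylase, differed by 0.25 ± 0.09. Genes of lipid uptake and fatty acid use, which chylomicron fat would feed, did not share a direction. Of 39 measured, 4 were apart and higher and 4 apart and lower, beside 4.86% of all genes each way. Their median was 0.03, and -0.02 to 0.07 with 1 sample left out (T/HS replicate 2 and T/SS-LDL replicate 2).

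On the higher side of that lipid list stood enzymes of mitochondrial beta-oxidation. Acadm, the medium-chain acyl-CoA dehydrogenase, was 11.09 and 10.87 in T/SS, 11.61 and 11.14 in T/SS-LDL, 10.47 and 10.18 in T/HS, and 11.37 and 10.90 in T/HS-LDL. T/HS samples were the lowest, and the groups did not overlap in either state, with a difference of 0.60 ± 0.16 (SE). Decr1, which clears unsaturated bonds, differed by 0.33 ± 0.09, and Hadhb, of the trifunctional protein, by 0.34 ± 0.14 or by 0.20 without T/SS-LDL replicate 1-3. On the lower side stood genes better known from liver and gut: the hepatic lipase Lipc (-0.20 ± 0.07, at a level of 6.43), the apolipoprotein Apoc3 (-0.15 ± 0.06, at 10.96) and the fatty acid binding protein Fabp1 (-0.23 ± 0.09, at 6.62). Fabp1 differed by -0.42 without shock and by -0.05 with shock, where samples overlapped. Lpl, the lipase that frees fatty acids from chylomicrons at the capillary wall, was 13.07 and 12.82 in T/SS, 13.16 and 12.55 in T/SS-LDL, 12.06 and 11.48 in T/HS, and 12.99 and 13.29 in T/HS-LDL. It differed by 1.36 with shock and by -0.09 without, and the test of that difference between states gave a limma adjusted p of 1.

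Genes of the mitochondrial respiratory chain were mostly higher. Of 31 measured, 25 had a difference above 0, with a median of 0.12 (0.13 without shock, 0.12 with shock). That median was 0.08 without T/SS-LDL replicate 1-3 and 0.19 without T/SS-LDL replicate 2. Apart and higher in both states were 6 of the 31, beside 4.86% of all genes, and 1 was apart and lower. That share is not matched for signal. In the brightest quintile of probe sets, 131 of 1750 were apart and higher and 33 apart and lower. At an unadjusted limma p under 0.05, 7 were higher and 0 lower, beside 5.05% of all genes higher. Their mean log2 level over the list was 11.85 and 11.89 in T/SS, 12.07 and 11.93 in T/SS-LDL, 11.68 and 11.75 in T/HS, and 11.74 and 11.93 in T/HS-LDL. The list mean overlapped with shock.

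Ndufc1, a subunit of complex I, was 11.71 and 11.91 in T/SS, 12.12 and 11.93 in T/SS-LDL, 10.72 and 11.06 in T/HS, and 11.68 and 11.67 in T/HS-LDL. It differed by 0.50 ± 0.14 (SE), more with shock (0.78) than without (0.22), though the difference between states did not pass the test (limma adjusted p of 1). Ndufa4 differed by 0.31 ± 0.09, Ndufs4 of complex I by 0.50 ± 0.17, Uqcrfs1, the iron-sulfur protein of complex III, by 0.26 ± 0.09, and Cyc1 of the same complex by 0.32 ± 0.12. Samples overlapped for Cyc1 without shock. Cox8a of complex IV, at the highest level of the list (14.66), differed by 0.22 ± 0.08. Heart muscle, which extends into the pulmonary veins of rodents and is rich in mitochondria, was checked through 21 markers. Of these, 18 were lower and 3 higher in ligated samples, with medians of 0.16 without shock and -0.28 with shock.

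Tomm20, the import receptor of the outer mitochondrial membrane, was 10.95 and 11.08 in T/SS, 11.29 and 11.33 in T/SS-LDL, 10.68 and 10.83 in T/HS, and 11.13 and 11.26 in T/HS-LDL. Every ligated sample was above every unligated sample, with a difference of 0.37 ± 0.08 (SE; limma adjusted p = 0.559). A brighter probe set of Tomm20 gave 0.25 ± 0.11 and overlapped without shock. Gatm, the mitochondrial enzyme that starts creatine synthesis from arginine, was 9.32 and 9.14 in T/SS, 9.84 and 9.52 in T/SS-LDL, 8.90 and 8.49 in T/HS, and 9.42 and 9.45 in T/HS-LDL. It too had every ligated sample above every unligated sample, with a difference of 0.59 ± 0.12 (SE). Of 13 arginine and polyamine genes, 2 were apart and higher, beside 4.86% of all genes: Gatm and Oat (0.25 ± 0.10, or 0.16 without T/HS-LDL replicate 1-3).

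Antioxidant and detoxification enzymes were higher in 23 of 29 measured genes, with a median of 0.11. That median was 0.07 without T/HS-LDL replicate 2. Apart and higher were 4, beside 4.86% of all genes, and 5 were higher at an unadjusted limma p under 0.05, beside 5.05%. Sod1, the cytosolic superoxide dismutase, was 13.60 and 13.71 in T/SS, 13.81 and 14.01 in T/SS-LDL, 13.52 and 13.72 in T/HS, and 13.87 and 13.92 in T/HS-LDL. Its difference was 0.27 ± 0.08 (SE), and of its 3 probe sets 1 went the other way at -0.29 ± 0.16. The peroxiredoxins Prdx2 and Prdx1 differed by 0.25 ± 0.07 and 0.24 ± 0.10, the epoxide hydrolase Ephx1 by 0.34 ± 0.11 and the glutathione transferase Gsta4 by 0.30 ± 0.12. Samples overlapped for Prdx1 and Gsta4 without shock. Catalase (Cat) was 11.08 and 11.09 in T/SS, 11.58 and 10.49 in T/SS-LDL, 8.31 and 9.02 in T/HS, and 10.20 and 11.19 in T/HS-LDL. It thus differed by 2.04 with shock and -0.05 without, and the interaction was not past the threshold (limma adjusted p of 1).

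Genes of protein folding were higher in 22 of 27 measured, with a median of 0.12 that came mainly from shocked rats (0.23, against 0.01 without shock). The median was 0.05 without T/HS-LDL replicate 1-3. Apart and higher were 5, and 3 were apart in opposite ways, beside 4.86% and 3.23% of all genes. Cryab, the small heat shock protein of muscle and epithelium, was 12.15 and 12.09 in T/SS, 12.49 and 12.29 in T/SS-LDL, 11.58 and 11.44 in T/HS, and 11.86 and 11.85 in T/HS-LDL. Ligated samples were above unligated samples in each state by a like amount (0.27 and 0.35), for a difference of 0.31 ± 0.07 (SE). Its other probe set gave 0.02 ± 0.28. Dnaja2, a partner of the Hsp70 chaperones, differed by 0.49 ± 0.10, and the mitochondrial chaperonins Hspe1 and Hspd1 by 0.23 ± 0.08 and 0.36 ± 0.16. Hspd1 differed by 0.21 without T/HS replicate 1-3.

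Among clock genes, Nr1d2, a repressor that closes the loop of the circadian clock, was 9.98 and 9.91 in T/SS, 10.55 and 10.72 in T/SS-LDL, 10.65 and 9.96 in T/HS, and 11.31 and 10.71 in T/HS-LDL. The groups did not overlap in either state, though by only 0.06 with shock, and the difference was 0.70 ± 0.18 (SE; 1.62-fold; limma adjusted p = 0.559). Nr1d1, its sister gene, differed by 0.36 ± 0.26, with overlap, and by 0.16 without T/HS replicate 2. Per2 differed by 0.66 ± 0.32, or by 0.31 without T/HS-LDL replicate 1-3, and Bhlhe41 by 0.37 ± 0.18, or by 0.17 without T/SS-LDL replicate 1-3. Of 10 clock genes 7 were higher, with a median of 0.19 (0.12 without T/HS replicate 2), and 2 were apart and higher, beside 4.86% of all genes. The hour of the day at which lungs were taken was not compared, since the labels used here give none.

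Beyond these lists, the rule for naming took the 15 higher and 15 lower genes with the smallest p among those apart in both states. They were chosen on this contrast, so their differences are a description. The 15 higher genes differed by 0.31 to 0.82, and all had a limma adjusted p of 0.559. Cyp2j3, an epoxygenase that turns arachidonic acid into vasoactive lipids, had the smallest p. It was 6.81 and 6.84 in T/SS, 7.34 and 7.14 in T/SS-LDL, 6.76 and 6.55 in T/HS, and 7.28 and 7.25 in T/HS-LDL. The groups did not overlap, with a difference of 0.52 ± 0.08 (SE). Of its 2 other probe sets, the brighter gave 0.49 and the dimmest 0.01.

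Prnp, the prion protein of neurons, endothelium and leukocytes, was 12.50 and 12.39 in T/SS, 12.97 and 12.83 in T/SS-LDL, 12.47 and 12.37 in T/HS, and 12.77 and 12.88 in T/HS-LDL. It was the brightest of the 15, every ligated sample was above every unligated sample, and it differed by 0.43 ± 0.07 (SE; 1.35-fold). Pgrmc1, a heme-binding membrane partner of cytochrome P450, differed by 0.42 ± 0.09, and Dpyd, the first enzyme of pyrimidine breakdown, by 0.56 ± 0.12. Wee1, the kinase that delays mitosis, differed by 0.36 ± 0.08. The signalling genes Map2k5, a kinase of the Erk5 pathway, and Sos1, an exchange factor for Ras, differed by 0.46 ± 0.11 and 0.45 ± 0.11. The brighter probe set of Map2k5 gave 0.13 ± 0.08 and overlapped without shock. Ythdc1, a nuclear reader of methylated RNA, differed by 0.44 ± 0.10 in 1 probe set and by 0.00 and 0.02 in 2 others. Emb, a chaperone of lactate carriers, differed by 0.37 ± 0.08.

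From the other lists, the sodium, potassium and chloride carrier Slc12a2 was 11.30 and 11.22 in T/SS, 11.79 and 11.47 in T/SS-LDL, 11.15 and 11.33 in T/HS, and 11.66 and 11.53 in T/HS-LDL. All 4 ligated samples were above all 4 unligated samples, with a difference of 0.36 ± 0.09 (SE), while its 3 dimmer probe sets lay between -0.04 and 0.00. Klf4, a transcription factor of endothelium and epithelium, differed by 0.39 ± 0.11, and the antiproliferative gene Btg3 by 0.32 ± 0.08. Klf4 belongs to 25 measured immediate early genes, of which 21 were lower and 4 higher (median -0.09). Slc12a2 belongs to 23 measured genes of epithelial ion and water transport, of which 16 were lower and 7 higher (median -0.04). Of 28 genes of growth arrest, cell cycle and apoptosis, 5 were apart and higher and none apart and lower, beside 4.86% of all genes each way. Another 2 were apart in opposite ways, beside 3.23% of all genes. In that list 19 genes were higher and 9 lower, with a median of 0.03 (0.01 without shock, 0.11 with shock).

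The 15 lower genes had smaller differences, from -0.72 to -0.22, and lower signal. Their mean log2 intensity had a median of 7.57, against 9.78 for the 15 higher and 9.38 over all probe sets, and 11 of the 15 lay below that overall median. Dhodh, the mitochondrial enzyme of pyrimidine synthesis, was 7.54 and 7.59 in T/SS, 7.09 and 7.20 in T/SS-LDL, 7.64 and 7.43 in T/HS, and 7.27 and 7.18 in T/HS-LDL. It was lower in every ligated sample than in any unligated sample, at -0.36 ± 0.07 (SE; limma adjusted p = 0.559). Muc5ac, a gel-forming mucin of airway goblet cells, gave the same difference (-0.36 ± 0.08) in 1 probe set and -0.08 ± 0.16 in a brighter one.

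Scarb1, the receptor for high-density lipoprotein, was the brightest of the 15 lower genes. It was 13.05 and 13.09 in T/SS, 12.72 and 12.96 in T/SS-LDL, 13.18 and 13.37 in T/HS, and 12.90 and 12.96 in T/HS-LDL. Its difference was -0.29 ± 0.08 (SE), and its 2 other probe sets gave fitted differences of -0.23 ± 0.20 and -0.28 ± 0.24. Both were above 0 without shock (0.05 and 0.13) and below 0 with shock (-0.51 and -0.70). Ticam1, the adaptor of Toll-like receptor 3, differed by -0.31 ± 0.08, the immediate early gene Arc by -0.24 ± 0.06 and the elongation factor Supt5h by -0.72 ± 0.18. Supt5h stood at 8.17 in T/SS replicate 1, against 7.30 to 7.42 in the other unligated samples, and its difference was -0.51 without that sample. Its 2 brighter probe sets gave -0.23 ± 0.11 and -0.07 ± 0.11, and overlapped in at least 1 state. Prlr, the prolactin receptor, was lower in all 5 of its probe sets. Prss2, a pancreatic trypsin, Dspp of teeth, Spt1 of salivary gland, Chrm4 and Cyp1a2 are known from other organs, and their levels here were 6.84 to 9.84. The 2 other probe sets of Cyp1a2 gave 0.11 ± 0.12 and 0.00 ± 0.08.

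Vwf, the clotting factor carrier stored in endothelium, was 10.68 and 10.79 in T/SS, 10.33 and 10.53 in T/SS-LDL, 10.73 and 10.68 in T/HS, and 10.62 and 10.14 in T/HS-LDL. It was lower in both states, at -0.32 ± 0.11 (SE). A dimmer probe set of Vwf gave -0.19 ± 0.15 and overlapped in both states. Vwf was the only one of 12 endothelial markers apart in either direction in both states, and the median of these markers was -0.03. Markers of alveolar type II (8 genes, median -0.01), alveolar type I (6, -0.02) and lymphatic endothelium (6, -0.06) lay near the median of all genes.

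**Figure D3:**
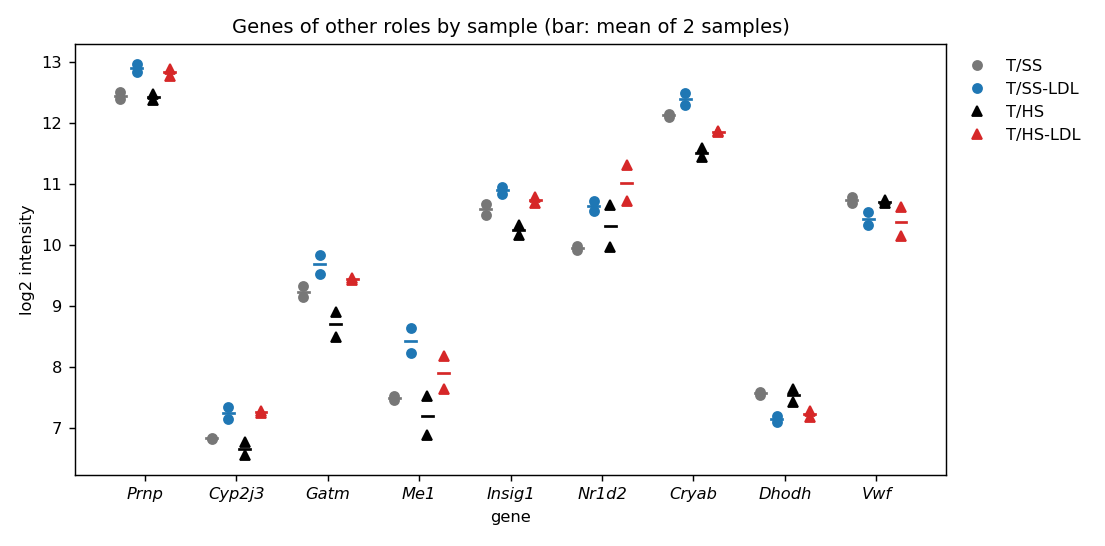
Log2 intensity of 9 genes in the 8 samples, by group, with a bar at the mean of the 2 samples of a group. The first 7 genes lie higher and Dhodh and Vwf lower in ligated samples of each shock state. T/HS has the lowest mean for Prnp, Cyp2j3, Gatm, Me1, Insig1 and Cryab, though for Prnp it lies close to T/SS.

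The direction of the difference went with signal. In the lowest quintile of probe sets by mean intensity, 42 were apart and higher and 121 apart and lower. In the brightest quintile these counts were 131 and 33. The median difference was -0.04 in the lowest quintile and 0.05 in the brightest, and it was nearly the same without and with shock. The brightest quintile spanned mean log2 intensities of 11.25 to 14.93. Sample means of the mitochondrial list (11.68 to 12.07) and the antioxidant list (11.64 to 11.97) lay in that range. Those of the protein folding list were 11.21 to 11.65. The shares of all genes given beside these lists are not matched for signal. The ratio of 3' to 5' signal of Gapdh, a measure of RNA integrity and labelling, was 0.98 to 1.22 on the log2 scale in unligated samples and 1.02 to 1.54 in ligated samples. That of hexokinase was 1.00 to 1.49 in unligated and 0.88 to 1.30 in ligated samples. For beta-actin it was 0.12 to 0.17 and 0.07 to 0.27. The part of RNA quality in these differences was not tested.

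**Figure D4:**
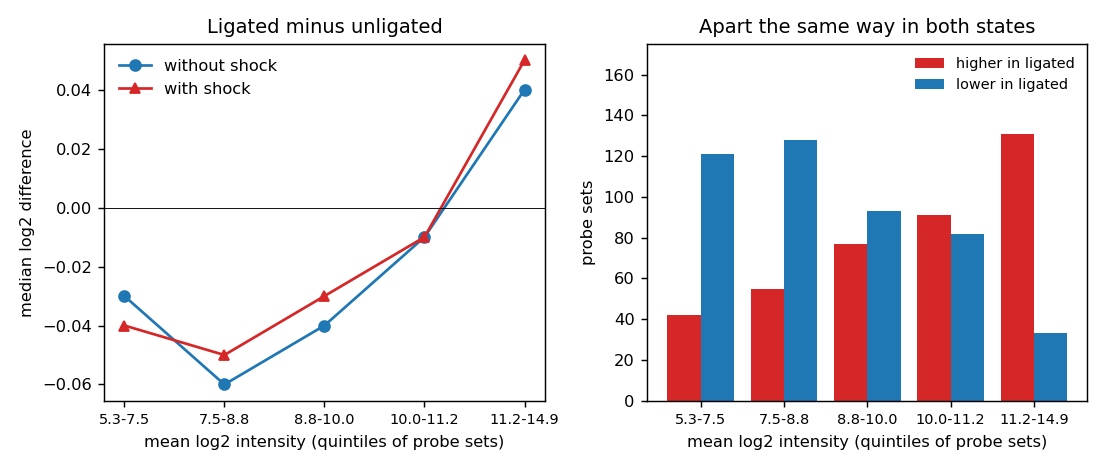
Left, median log2 difference between ligated and unligated samples in quintiles of probe sets by mean log2 intensity, without and with shock. Right, number of probe sets apart the same way in both states. Lower probe sets prevail at low signal (121 against 42) and higher ones at high signal (131 against 33).

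Across the 36 lists, the neutrophil list had the highest median and the interferon list the lowest (-0.55). Medians of the other 34 lists lay between -0.14 and 0.19. The heart muscle list (0.16 without shock, -0.28 with shock) and the adipose list (-0.03 and 0.26) differed in sign between states. In the heart muscle list, T/SS replicate 2-3 and T/HS-LDL replicate 2 had the lowest mean levels (9.38 and 9.15). The difference between lists or states was not tested.

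**Figure D5:**
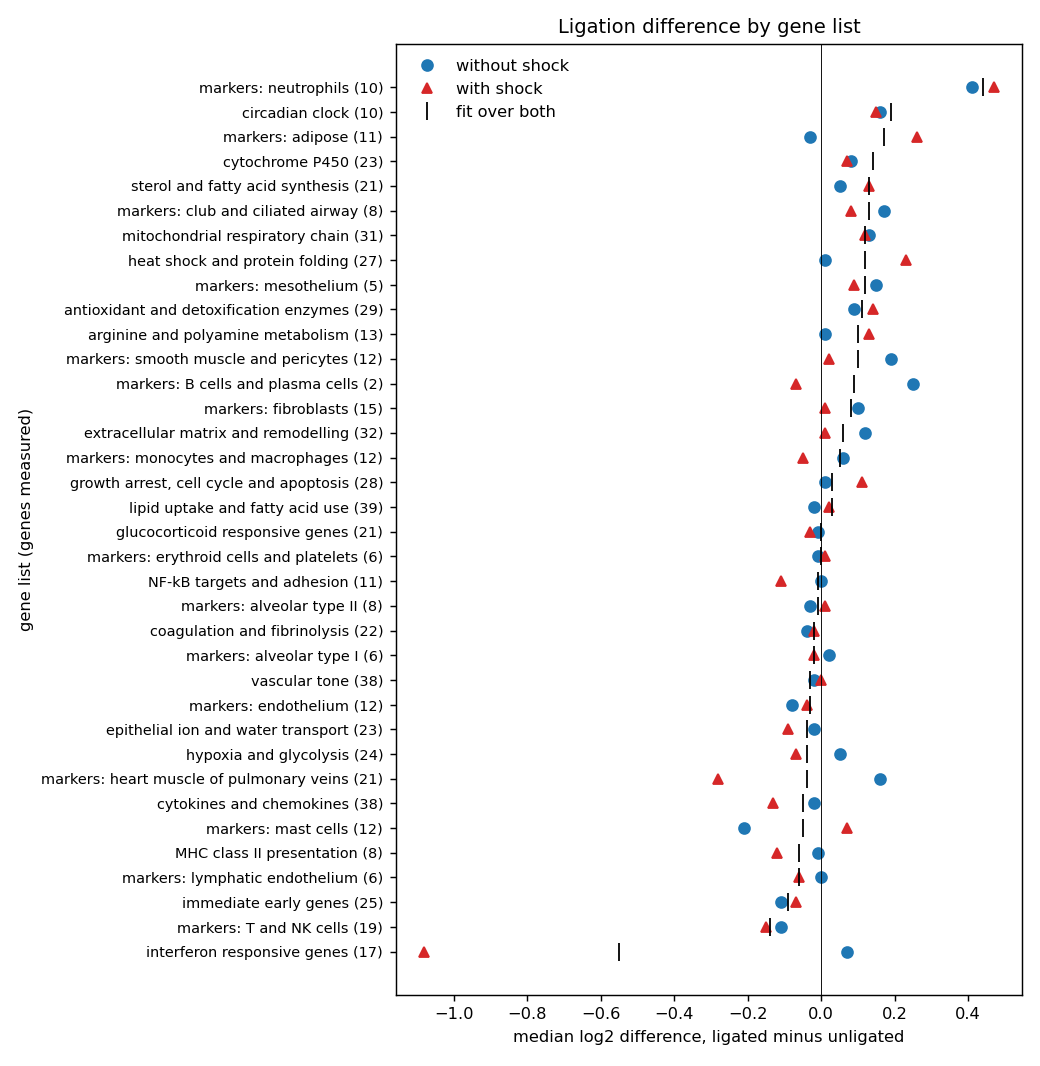
Median log2 difference between ligated and unligated samples for 36 gene lists, without shock (circles), with shock (triangles) and fitted over both states (bars), with the number of genes measured in brackets. Neutrophil markers are highest in both states (0.41 and 0.47). Interferon responsive genes have the lowest median with shock (-1.08), which rests on T/HS replicate 2.

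Whether ligation acted differently with and without shock was tested as an interaction. No probe set passed (0 of 8740; smallest limma adjusted p of 1), and 261 (2.99%) had an unadjusted p under 0.05. Without T/HS replicate 1-3 the count of probe sets past the threshold was 27, all lower, and without T/HS replicate 2 it was 1. The 5 genes with the smallest p included Canx, the calnexin chaperone, and Sult2a6, a sulfotransferase. Canx was 13.28 and 13.27 in T/SS, 13.48 and 13.01 in T/SS-LDL, 12.05 and 12.38 in T/HS, and 13.28 and 13.34 in T/HS-LDL. It differed by -0.03 without shock and by 1.10 with shock, where T/HS alone was low. Not all probe sets of Canx had this pattern. Without and with shock, the others gave -0.25 and 1.31, -0.01 and 1.18, 0.28 and 0.52, and 0.23 and -0.03.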

How the data were processed

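RNA of whole lung was hybridised to 12 one-colour Affymetrix rat genome arrays. Per the submitters' processing notes the authors used RMA, whose version and settings are not given in the sources used here. The deposited values are intensity on a linear scale, already normalized between arrays, and log2 of each value was used without further scaling. RMA summaries have no detection call, and values near the floor or the top of the scale understate differences. The number of arrays limits the precision.

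Of 8799 probe sets, 59 controls were left out. Gene symbols came from the platform's annotation table: 7006 probe sets had 1 symbol, 308 several and 1426 none. Arrays of a group whose log2 differences had a robust SD under 0.1 were averaged. Whether the remaining samples are separate animals rests on the labels alone, so the p-values measure the spread between these samples. The ligation difference is that of an additive model (shock, ligation) fitted across the 8 samples by limma (version 3.58.1, under R 4.3.3; 5 residual degrees of freedom, 2.84 prior), two-sided, with Benjamini-Hochberg adjustment over 8740 probe sets and a threshold of 0.05. The interaction was fitted with 4 residual degrees of freedom. The code of the fit was tried on simulated data with the same spread for every probe set and independent noise. Spreads in the real data are unequal, so that trial checks the code and not these results. Errors are limma's standard errors. Differences within a state are those of group means.

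A gene of a list is represented by its probe set with the highest mean, and a gene of the 15 higher and 15 lower by that with the smallest p. The rule for named genes took, among probe sets apart in both states, the 15 higher and 15 lower with the smallest p, the 5 with the smallest p for the interaction, and of each of 36 lists (16 of cell type markers) up to 2 genes with an unadjusted p under 0.05 and the one with the highest mean. Further genes of the lists, and the probe sets above 1.5-fold, were chosen after their values were seen. The members and lists were chosen with earlier results of these data known. Alternatives were other treatments of the near-identical arrays, a replicate block, no shock covariate, other scalings, a filter on dim probe sets, another prior and leaving out each sample. Promoter sequences are from RefSeq (GRCr8).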

Additional observations from a re-analysis of the deposited data

Results flagged for a closer look

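For 5 named genes and 1 list, both ligated samples lay on one side of both unligated samples without shock and on the other side with shock (for the list, by its mean level). Other genes and lists had opposite signs with samples that overlapped. For these 5 genes, no interaction passed the threshold (limma adjusted p of 1 for each gene; the list was not tested). Mapk12, a stress kinase of muscle, differed by -0.15 without shock and 0.79 with shock, an interaction of 0.93 ± 0.16 (SE). A dimmer probe set of Mapk12 gave -0.41 and -0.01. Tpm1, a tropomyosin, differed by 0.85 and -0.42 in 1 probe set, an interaction of -1.27 ± 0.23 (SE). No other probe set of Tpm1 was apart in opposite ways. They gave 0.10 and 0.11, 0.15 and 0.05, -0.02 and 0.10, and -0.23 and 0.06. Gda, guanine deaminase, stood at 11.49 and 11.41 in T/SS, 12.84 and 12.54 in T/SS-LDL, 12.85 and 13.89 in T/HS, and 11.99 and 12.66 in T/HS-LDL. It was higher with ligation in sham rats (1.24) and lower in shocked rats (-1.04), an interaction of -2.28 ± 0.50 (SE). A brighter probe set of Gda gave 0.71 and -0.72, and a dimmer one -0.12 and -0.08. Tpsb2, a mast cell tryptase, differed by -0.29 and 0.22 (interaction 0.50 ± 0.19), and Scgb1a1, near the top of the scale, by -0.10 and 0.04 (0.14 ± 0.12). For the 12 mast cell markers the mean differences were -0.16 and 0.10, which are 0.27 apart, and this was not tested.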

How the results depend on the processing

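The count of 0 probe sets past the threshold for ligation held in limma under every alternative with 8 samples and with each sample left out (0 to 0), and with 12 arrays and sample as a random block. It was 664 with 12 arrays as separate samples and 206 with 12 arrays and a replicate block. Same-numbered arrays correlated above 0.1 in 3 of 18 pairs (-0.166 to 0.189) and the labels give no pairing, so the block was not used elsewhere. The interaction gave 1 call with 12 separate arrays and 0 to 27 with a sample left out. The share of probe sets with the same sign in both states was 63.7% with 12 separate arrays, 59.5% with centred arrays, 58.1% with quantile normalization and 53.0% to 63.8% with a sample left out. Probe sets apart numbered 569 with the dimmest probe sets left out, 654 to 875 under the other settings, and 1143 to 2006 with a sample left out, where 1 state has a lone sample. At an unadjusted p under 0.05, there were 473 with the dimmest probe sets left out, and 2645 and 2467 with 12 arrays as separate samples and with the replicate block. Of 1724 differences of named genes under the alternatives, 1610 kept their direction and side of the threshold, and 112 passed it with 12 arrays. The remaining 2 changed sign: Cxcl10 (-2.66 to 0.06 with a sample left out, the latter without T/HS replicate 2) and Lcn2 (-0.16 to 0.36, the former without T/SS-LDL replicate 1-3). None had passed in the main fit. Most of these genes were named for their values in this contrast, and the alternatives reuse the same samples. Kept directions are therefore not independent support. Of 360 list medians, 9 moved beyond the spread between samples. With 2 samples a group, a lone sample is assumed to vary like the others, and dim probe sets have only small measurable differences.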
